A study of Rattus norvegicus with 17 samples.

Results

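Skin explants of hairless rats differed widely in how much hair follicle keratin RNA they held, and the 5 arrays with most of it are compared here with the 5 with least, across 11158 other named genes. The 17 arrays were ranked by a score that ignored exposure. It is the mean, over keratins of the inner root sheath, of the log2 signal minus that array's 75th percentile, each gene being centred on its mean over all arrays. The score was defined on Krt25, Krt27, Krt28, Krt71 and Krt73. Krt71 has no named probe here, so it rested on the other 4. The 5 highest arrays are called follicle-rich, the 5 lowest follicle-poor, and 7 arrays lay between. Because measured values of the same arrays chose the groups, their differences are given as a description with no p-value.

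The animals were male CD hairless rats, 2 to 3 months old at the start. Exposed rats received 94 GHz millimetre waves during 5.5 months, in sessions of 3 h on 3 days a week, and sham rats were handled to the same schedule without the waves. There were 9 exposed and 8 sham arrays, whereas the labels name 6 and 8 animals, and 2 or more exposed arrays may therefore stem from 1 animal. RNA came from 15 to 20 mg of whole skin biopsy and was read with 1-colour Agilent arrays, and nothing in the labels gives the body site, the hair cycle stage or the depth of a biopsy. Follicle-rich were sham replicates 3 and 1 and exposed replicates 3, 6 and 1. Follicle-poor were sham replicates 4, 6 and 5 and exposed replicates 7 and 4. The 75th percentile of signal ran from 1358 to 1642 on follicle-rich and from 1077 to 1569 on follicle-poor arrays, and 66.8% to 70.8% and 66.7% to 69.3% of probes were well above background. The slide of an array was inferred from the first bracketed number in its sample title. The 4 slides so read were unevenly shared. Follicle-rich arrays lay on slide 1 (3) and slide 2 (2), follicle-poor arrays on slide 2 (3), slide 3 (1) and slide 4 (1), so slide and group can be told apart on slide 2 alone.

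A growing hair follicle is built from concentric layers. Matrix cells of the bulb divide and then harden into the hair shaft, with its cortex and cuticle, or into the inner root sheath around it, and each layer makes its own keratins. Shaft cells add keratin-associated proteins, which are cross-linked to the keratin filaments, and Wnt and BMP signals from the dermal papilla steer the fate of the matrix. The bulge, which holds stem cells, and the upper part of the outer root sheath persist through the hair cycle, whereas the inner root sheath and shaft are made anew in each growth phase.

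The keratins that set the score are type I (Krt25, Krt27, Krt28) and type II (Krt73) filament proteins. Their promoters are shown with those of Krt26, Krt72, Krt85 and Mt4, picked from the genes that were higher in follicle-rich skin. Krt25, Krt26, Krt27 and Krt28 follow each other on chromosome 10, at chr10:84771168-84771297, chr10:84786972-84787101, chr10:84800102-84800231 and chr10:84824828-84824957. On chromosome 7, Krt73 lies at chr7:134814999-134815128, its neighbour Krt72 at chr7:134799518-134799647 and Krt85 at chr7:134515757-134515886. Mt4, a metallothionein gene, lies at chr19:10871802-10871931. Each printed stretch holds 130 bases around the annotated start, on the minus strand of GRCr8, from RefSeq. Capitals mark the TATA box letters TATAAA and, in Krt73, the homeodomain letters TAATTG read on the other strand.
Krt25 promoter: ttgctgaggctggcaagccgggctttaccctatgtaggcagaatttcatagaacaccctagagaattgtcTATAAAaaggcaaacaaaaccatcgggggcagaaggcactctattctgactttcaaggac
Krt26 promoter: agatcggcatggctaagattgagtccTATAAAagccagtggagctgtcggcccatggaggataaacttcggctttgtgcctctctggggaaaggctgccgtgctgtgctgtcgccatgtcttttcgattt
Krt27 promoter: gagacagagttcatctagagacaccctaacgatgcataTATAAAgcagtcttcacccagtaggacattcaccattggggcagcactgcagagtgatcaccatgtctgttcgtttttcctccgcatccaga
Krt28 promoter: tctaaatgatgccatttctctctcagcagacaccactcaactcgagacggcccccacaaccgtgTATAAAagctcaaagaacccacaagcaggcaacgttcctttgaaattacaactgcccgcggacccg
Krt73 promoter: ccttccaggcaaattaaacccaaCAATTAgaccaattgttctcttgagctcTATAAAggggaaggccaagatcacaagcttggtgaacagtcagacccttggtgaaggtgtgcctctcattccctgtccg
Krt72 promoter: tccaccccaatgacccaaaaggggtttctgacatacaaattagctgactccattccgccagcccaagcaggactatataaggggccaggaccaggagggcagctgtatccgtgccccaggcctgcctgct
Krt85 promoter: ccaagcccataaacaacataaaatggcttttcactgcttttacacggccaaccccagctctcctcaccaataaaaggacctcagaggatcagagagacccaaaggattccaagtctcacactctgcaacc
Mt4 promoter: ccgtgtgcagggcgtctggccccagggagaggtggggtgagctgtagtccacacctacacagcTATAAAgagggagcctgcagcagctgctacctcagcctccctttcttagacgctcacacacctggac
Of these 8 stretches, those of Krt72 and Krt85 do not hold TATAAA and the other 6 do. In windows from 250 bases before to 50 after the start, searched on both strands, TATAAA stood in 14.3% of all 27457 promoters of the RefSeq table and in 8.28% of those of the 9090 named genes kept that had one. It stood in 27 of the 118 promoters found for genes higher in follicle-rich skin (22.9%), and in 14 of the 23 found for keratins and keratin-associated proteins among them (60.9%). Between 45 and 16 bases before the start on the gene's own strand, it stood in 2.02% of the named genes kept, in 5.08% of the higher genes and in 3 of the 23 (13.0%). The TCF/LEF letters CTTTGAT stood in 3.62% of all promoters, 2.53% of those of the named genes kept and 4.24% of those of the higher genes. The GATA letters AGATAA stood in 11.3%, 6.81% and 7.63% of these sets, and TAATTG in 8.25%, 5.01% and 8.47%. None of these shares says that a factor binds.

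The score had a narrow spread at the top and a long tail at the bottom. It averaged 1.90 ± 0.33 (SD, n = 5) on follicle-rich arrays, 0.80 ± 0.42 (SD, n = 7) between, and -3.02 ± 3.47 (SD, n = 5) on follicle-poor ones. The last follicle-rich array had 1.36 and the next one 1.25, so that edge is a narrow one, and at the other edge the last array between had 0.085 and the first follicle-poor one -0.43. Follicle-poor arrays ran in order from sham replicate 4 at -0.43 through sham replicate 6 at -1.04, exposed replicate 7 at -1.32 and exposed replicate 4 at -3.43 to sham replicate 5 at -8.88. The last stands far below the rest, and Krt27 and Krt73 were not well above background on it. Krt25 ran from 6.85 to 7.49 on follicle-rich and from -4.44 to 5.76 on follicle-poor arrays. Even follicle-poor skin other than sham replicate 5 thus held Krt25 signal above the array's 75th percentile. These values chose the groups.

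**Figure D1:**
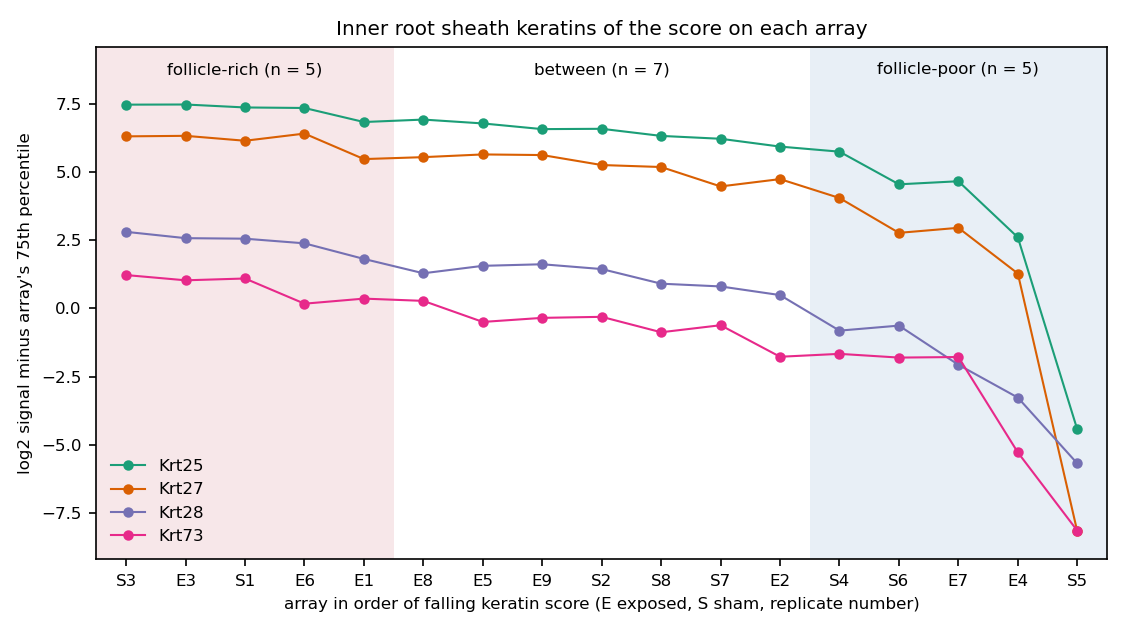
Levels of the 4 keratins of the score (y axis, log2 signal minus the array's 75th percentile) on each of the 17 arrays (x axis, in order of the score; E exposed, S sham). The lines fall gently from the follicle-rich arrays (red shade) to sham replicate 4 and steeply over the last follicle-poor arrays (blue shade), with Krt25 at 7.48 on the first and -4.44 on the last array.

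Exposed and sham skin were spread over the whole range. Follicle-rich arrays were 3 exposed and 2 sham, those between 4 and 3, and follicle-poor arrays 2 and 3. The score averaged 0.45 ± 1.78 over the exposed arrays (SD, n = 9) and -0.51 ± 3.56 over the sham arrays (SD, n = 8), a difference of 0.96 that did not pass a two-sided exact permutation test (p = 0.571). Permuting within slides gave an exact p of 0.632. Without sham replicate 5 the difference turned to -0.24 (exact permutation p = 0.782), so its sign rests on that array.

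Of the other named genes, 146 were higher in follicle-rich skin, or 1.31% of 11158, and 5 were lower, or 0.0448%. A gene counts as higher or lower when the 5 arrays of one group all lie beyond the 5 of the other and the means differ by at least 1 on the log2 scale, which is 2-fold. The 146 had a median difference of 2.38 and a range of 1.01 to 7.43, against a median of -0.032 over all genes, whose 5th and 95th percentiles were -0.41 and 0.47. By size, 89 of them differed by at least 2, 51 by at least 3 and 12 by at least 5. In whole skin, fewer cells of a type and less RNA per cell cannot be told apart. Without sham replicate 5, 137 of the 146 still met the rule. On slide 2, 2 follicle-rich and 3 follicle-poor arrays lie together. There 136 of the 146 differed by at least 1 in the same direction, with a median of 2.38, and 285 of all genes (2.55%) did so. These arrays helped to choose the 146, so the shares do not test the difference within a slide. With exposed arrays alone 134 of the 146 met the rule, and with sham arrays alone 142. Because all these subsets come from the arrays that chose the genes, the lack of overlap was given in advance. Only the size of the difference could fail, so these counts are a description and not separate support. No overlap of any size was seen for 403 genes that were higher (3.61%) and 388 that were lower (3.48%), so the excess of higher genes is in the large differences.

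Inner root sheath genes outside the score were led by 2 keratins and 2 enzymes. Of 6 measured genes of 10 listed, 4 were higher in follicle-rich skin, and the median difference was 3.62. Replicate numbers follow the order of the deposited samples and pair nothing. Values are given in score order throughout, for follicle-rich arrays as sham replicate 3, exposed 3, sham 1, exposed 6 and exposed 1, and for follicle-poor arrays as sham replicate 4, sham 6, exposed 7, exposed 4 and sham 5. Krt72, a type II keratin of the inner root sheath whose gene neighbours Krt73, had levels of 0.77, 0.32, 0.45, 0.68 and -0.19 on follicle-rich arrays and of -3.10, -4.32, -4.36, -5.85 and -8.30 on follicle-poor ones. The groups lay almost 3 log2 units apart at their nearest points, and the means differed by 5.59. Krt26, the type I keratin beside Krt25, had -0.35, -0.79, -0.75, -1.03 and -1.29 against -4.11, -4.64, -4.60, -7.78 and -8.37, a difference of 5.06. Follicle-rich arrays were close to each other for both keratins, and the spread lay in the follicle-poor arrays.

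Peptidylarginine deiminases turn arginine into citrulline in trichohyalin, the matrix protein of the inner root sheath. Padi3 had 3.81, 3.97, 3.55, 3.66 and 2.80 in follicle-rich skin and 1.55, -0.05, 0.44, -1.84 and -4.24 in follicle-poor skin, a difference of 4.38. Padi1 differed by 2.86, from a mean of 1.18 ± 0.39 to one of -1.68 ± 0.81 (SD, n = 5 each). The remaining members went the other way. Gata3, a transcription factor of the inner root sheath that epidermis also makes, had a difference of -0.10, and Tgm3, a transglutaminase of hair and of the upper epidermis, one of -0.50, from 1.94 ± 0.38 to 2.44 ± 0.26 (SD, n = 5 each). For both of these the arrays of the groups overlapped. Krt74, Tchh, Tchhl1 and Cux1 had no named probe.

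Hair shaft keratins had a median difference of 4.93. All 11 measured members of 15 listed had a positive difference, and 7 were higher under the rule. Krt85, a type II keratin of the early shaft, had 3.94, 3.57, 0.90, 1.52 and 0.86 against 0.31, -3.98, -2.24, -4.71 and -8.11, a difference of 5.91. Krt35, its type I counterpart in matrix, cortex and cuticle, had 1.36, 1.23, -0.27, 0.01 and -0.29 against -2.27, -3.01, -2.52, -5.88 and -8.02, a difference of 4.75. Krt33a, a cortex keratin, had 5.18, 4.84, 2.45, 3.06 and 2.12 against 1.96, -2.19, -0.92, -3.19 and -8.05, a difference of 6.01. In each of these, sham replicate 3 and exposed replicate 3 stood above the other follicle-rich arrays, and sham replicate 4 came closest to them from below.

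Sham replicate 4 set which shaft keratins met the rule. Krt34 differed by 5.80, Krt33b by 5.16 and Krt81 by 4.93, and none counted as higher, because the level on sham replicate 4 lay within the follicle-rich range. For Krt34 that level was 2.55, beside 5.30, 4.98, 2.64, 3.09 and 2.26 on follicle-rich arrays. The other follicle-poor arrays had -2.55, -0.59, -2.79 and -7.35. This array was thus low in inner root sheath keratins and near the middle of the series for Krt34, Krt33b and Krt81. Other shaft keratins varied on it. Krt35 at -2.27 lay below every array outside the follicle-poor group. Krt36 at -2.71 was exceeded only by sham replicate 3, exposed replicate 3 and exposed replicate 9. Krt36 differed by 2.14 and also overlapped. Krt87, a keratin outside the list, differed by 5.17 and met the rule.

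Krt40 and Krt82, keratins of the shaft cuticle, the layer of flat scales around the cortex, were not well above background in follicle-poor skin. Krt40 had -0.64, 0.02, -2.51, -1.70 and -2.08 on follicle-rich arrays and was not well above background on any follicle-poor array. Its follicle-rich mean was 49.9-fold above a floor on the follicle-poor arrays. That floor is, on each array, the lowest signal of any probe that counted as well above background, or the probe's own signal where higher. It is not the probe's own limit of detection, so the fold is not a strict lower bound. Krt82 was in the same way 22.7-fold above the floor, with -1.62, -1.33, -4.02, -3.10 and -3.07 on follicle-rich arrays. Krt39 differed by 3.76, from -3.88 ± 1.17 to -7.64 ± 1.08 (SD, n = 5 each), with 1 follicle-poor array well above background.

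The order of arrays by shaft keratins was not that by inner root sheath keratins. The shaft keratin list score, the mean of the centred members, was 3.23, 3.1, 0.80, 1.32 and 0.73 on follicle-rich arrays. It was 2.22 on exposed replicate 9, which lay between the groups and so exceeded 3 of the follicle-rich arrays, and 0.040 on exposed replicate 8, the highest array between by the inner root sheath score. Follicle-poor arrays had -0.36, -2.89, -1.87, -3.90 and -5.76. Sham replicate 3 and exposed replicate 3 were among the 3 highest of the 17 arrays for 11 of 11 shaft keratins, and exposed replicate 9 was so for 9. When 6 arrays were set against 6, which adds exposed replicate 8 to the follicle-rich side and exposed replicate 2 to the follicle-poor side, 81 of the 146 genes met the rule, and Krt31, Krt33a, Krt39, Krt85 and Krt87 were among those that did not.

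**Figure D2:**
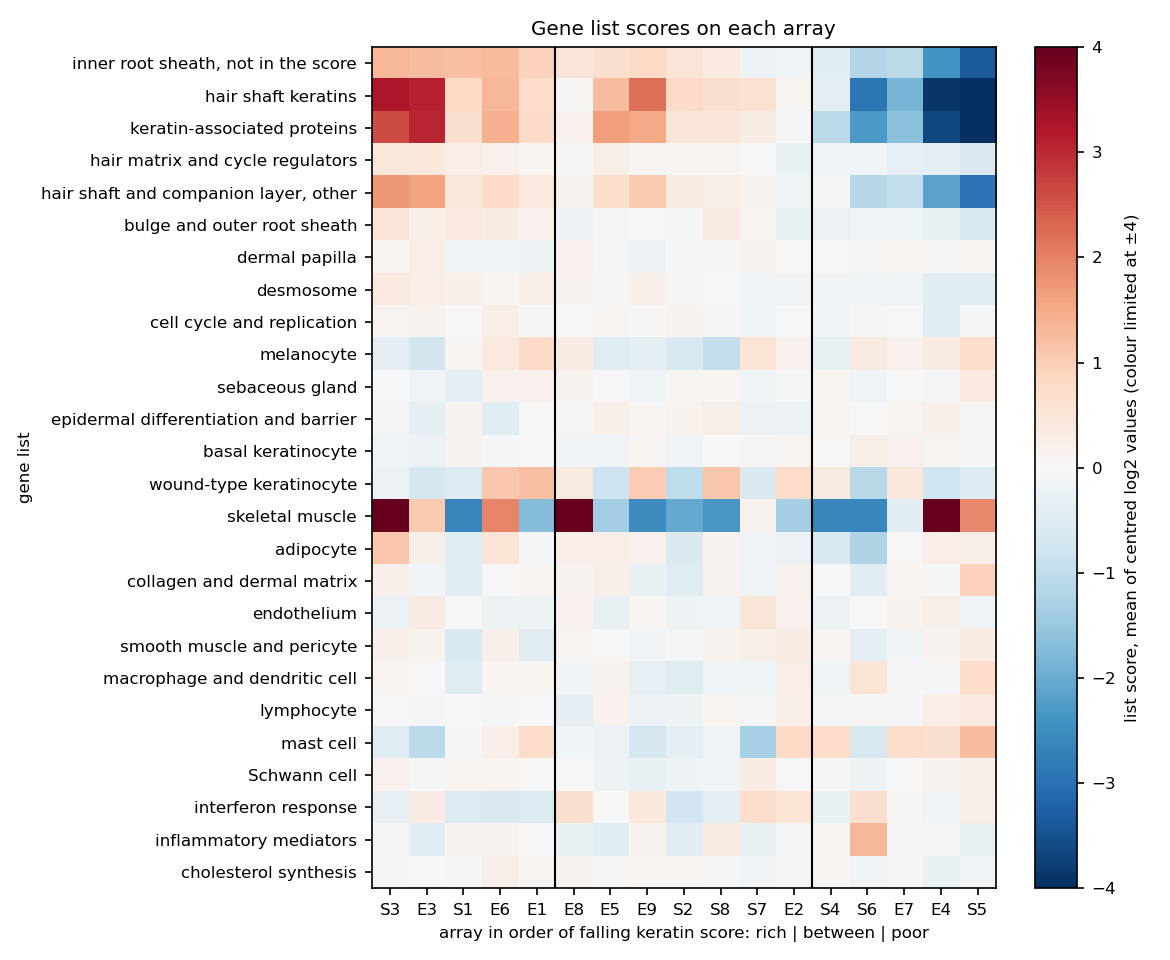
Score of each of the 26 gene lists (rows, mean of the members' centred log2 values, in colour) on each array (columns, in order of the inner root sheath score; black lines part the follicle-rich, between and follicle-poor arrays). The inner root sheath, shaft keratin and keratin-associated rows are red on the left and blue on the right, with the shaft keratin score at 3.23 on the first and -5.76 on the last array; the skeletal muscle row varies without that order.

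Keratin-associated proteins, the cross-linked matrix of the shaft, had a positive difference for 15 of 15 measured genes, with a median of 4.32, and 12 were higher under the rule. Krtap31-1 had a measured difference of 7.43, whose size is not exact because 2 follicle-poor arrays were not well above background. Its levels were 2.37, 2.71, 2.18, 2.51 and 1.81 on follicle-rich arrays and -4.68, -1.97, -2.62, -8.31 and -8.02 on follicle-poor ones. The follicle-rich arrays were nearly level here, unlike in the shaft keratins. Krtap15-1 had 6.29, 6.02, 3.02, 3.97 and 2.76 against 2.55, -1.73, -0.38, -3.06 and -8.11, a difference of 6.56 with sham replicate 4 again just under the follicle-rich range. Krtap14 differed by 6.24, Krtap19-5 by 5.45 and Krtap10l1 by 4.64. Krtap7-1 at 5.48, Krtap13-2 at 4.32 and Krtap1-5 at 3.33 overlapped between the groups. Genes of these families resemble each other, and whether a probe also reads a near-identical copy was not tested.

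Other products of the shaft and of the companion layer, the sleeve of cells outside the inner root sheath, gave 6 higher genes of 10 measured, with a median difference of 2.26 and no negative one. Mt4, a metallothionein of stratified epithelia, had 6.25, 5.74, 3.55, 4.15 and 3.99 against 3.17, 1.46, 1.05, -2.22 and -6.20, a difference of 5.29. Gprc5d, an orphan receptor made in the hard-keratinised shaft, differed by 4.90, from 1.11 ± 1.26 to -3.79 ± 2.47 (SD, n = 5 each). S100a3, a calcium-binding protein of the cuticle, had 4.53, 4.63, 2.16, 2.83 and 2.48 against 1.09, -0.47, -0.93, -2.45 and -3.39, a difference of 4.56. Krt75, the companion layer keratin, had 2.69, 2.53, 2.16, 2.40 and 1.25 against 0.43, -0.39, -0.06, -2.01 and -3.23, a difference of 3.26. Lrrc15 differed by 2.79 and Hephl1, a copper-dependent ferroxidase, by 1.72. Hephl1 did not meet the rule after normexp background correction.

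**Figure D3:**
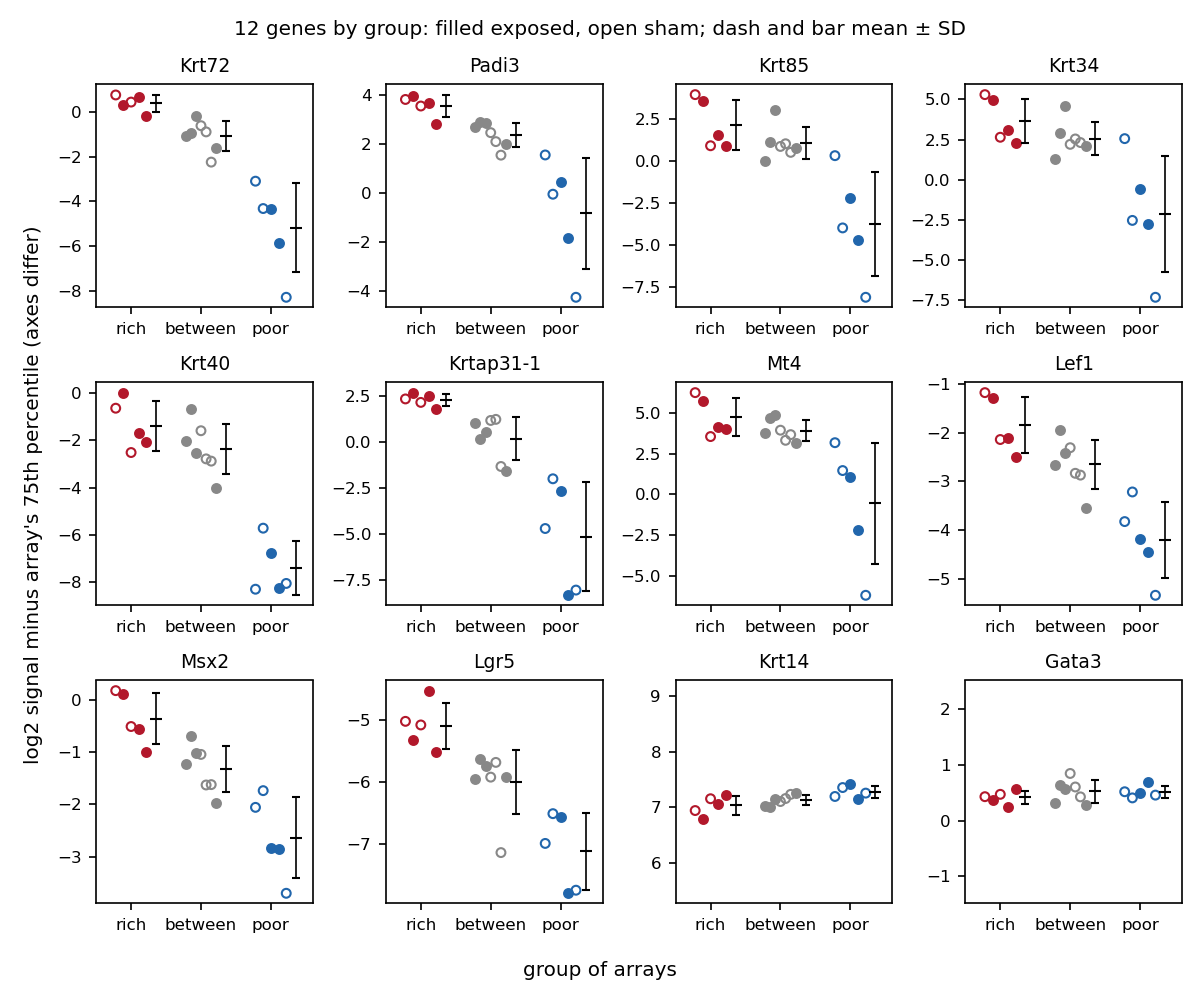
Levels of 12 genes (y axis, log2 signal minus the array's 75th percentile, scaled per gene) on follicle-rich, between and follicle-poor arrays; filled points are exposed and open ones sham, and dashes with bars show mean ± SD (n = 5, 7 and 5). Krt72 and Padi3 do not overlap between follicle-rich and follicle-poor arrays, with the arrays between touching the follicle-rich ones, Krt34 overlaps through sham replicate 4 at 2.55, and Krt14 and Gata3 lie level across the groups.

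Regulators of the matrix and of the hair cycle were higher by smaller amounts than the structural genes. Of 27 measured genes of 37 listed, 6 were higher, 23 had a positive difference, and the median was 0.35. Lef1, a transcription factor through which Wnt signals act in matrix cells, had -1.17, -1.29, -2.14, -2.11 and -2.50 on follicle-rich arrays and -3.82, -3.22, -4.19, -4.46 and -5.34 on follicle-poor ones, a difference of 2.36. Msx2, a homeodomain factor of the matrix, had 0.17, 0.11, -0.51, -0.56 and -1.0 against -2.06, -1.74, -2.83, -2.85 and -3.70, a difference of 2.28. Bambi, a decoy receptor for BMP and TGF-beta ligands, had 1.85, 1.75, 0.88, 0.95 and 0.61 against -0.21, -0.79, -1.07, -0.97 and -1.97, a difference of 2.21. In all 3 genes the follicle-poor arrays lay below every follicle-rich one, and sham replicate 5 was the lowest.

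Dlx3, a homeodomain factor of the differentiating matrix and also of the upper epidermis, had 1.70, 1.56, 1.35, 1.27 and 0.96 against 0.35, 0.33, 0.20, -0.12 and -0.07, a difference of 1.23. Wnt11, a secreted Wnt ligand, had -1.71, -1.75, -1.75, -1.92 and -2.40 against -2.87, -3.26, -3.26, -3.46 and -4.03, a difference of 1.47. Foxn1, the factor disrupted in nude mice, differed by 1.02, from -4.04 ± 0.41 to -5.06 ± 0.30 (SD, n = 5 each), which is at the edge of the rule. It did not meet the rule under quantile scaling, under normexp, with exposed arrays alone or without any of sham replicates 3, 4 and 5 and exposed replicates 3 and 7, and was 0.92 without sham replicate 5. Wnt5a at 0.88, Trps1 at 0.62 and Runx1 at 0.23 did not overlap but stayed under 2-fold. The Wnt target Axin2 had -0.20, the hedgehog receptor Ptch1 0.58, the BMP ligands Bmp2 and Bmp4 0.56 and 0.40, and Hr, the corepressor named for the hairless phenotype, 0.23. Shh was too dim to be kept, as were Edar and Fgf5, and Hoxc13 had no named probe.

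Genes of the bulge, the outer root sheath and the dermal papilla gave few differences of that size. In the bulge and outer root sheath list, 1 of 7 measured genes of 11 listed was higher and the median was 0.80, or 0.40 on slide 2. That gene was Lgr5, a receptor for R-spondins on follicle stem cells, with -5.03, -5.32, -5.09, -4.53 and -5.52 on follicle-rich arrays. It was not well above background on any follicle-poor array and was 3.82-fold above the floor used for Krt40. However, the difference was 0.35 after normexp, and it overlapped with 6 against 6 arrays. Shisa2 differed by 0.88 and Lhx2, a homeodomain factor of the bulge, by 0.80. Krt15, a keratin of the bulge and of basal epidermis, was the other way, at -0.58, with 5.78, 5.67, 6.15, 5.76 and 6.04 against 6.47, 6.57, 6.31, 6.39 and 6.54 and no overlap. In the dermal papilla list, 9 of 16 listed genes were measured and 0 of these met the rule in either direction. A positive difference was seen for 4 of 9, and the median was -0.052, or -0.26 on slide 2. Vcan, a matrix proteoglycan of the papilla, had 0.47, and Crabp1, a retinoic acid binding protein, -0.49. Corin, Rspo2, Fgf10 and Notum were too dim to be kept, and Hhip, Rspo4 and Wif1 had no named probe. Nor did Sox9, Nfatc1, Lgr6 and Lrig1 of the bulge list. The label follicle-rich thus rests on genes of the differentiating inner layers. The papilla genes that were measured did not share the difference, and those missing cannot be judged.

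Genes that serve both follicle and epidermis differed little. In the desmosome list Dsg4, the cadherin of hard-keratinised hair cells, was the 1 higher gene of 8, with a difference of 2.96, from -4.12 ± 0.58 to -7.08 ± 0.65 (SD, n = 5 each), and 1 follicle-poor array well above background. After normexp it differed by 0.82. The list median was 0.10. Cell cycle genes had a positive difference for 18 of 19 measured members with a median of 0.24, or 0.45 on slide 2, and 0 met the rule. Follicle-rich exposed replicate 6 was among the 3 highest of the 17 arrays for 16 of the 19. Follicle-poor exposed replicate 4 was among the 3 lowest for 17, and both arrays lie on slide 2. Mcm6, a replication helicase subunit, had 0.44 and the mitotic kinase Aurkb 0.49, and arrays overlapped for both.

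The epidermal genes that were measured were level or slightly lower in follicle-rich skin. The basal keratinocyte list, measured for 7 of 12 genes, had a median of -0.15, with 1 of 7 positive. The list of epidermal differentiation, measured for 8 of 17, had -0.21, with 1 of 8 positive. No measured member of either met the rule. Krt10, Lor, Flg, Itga6 and Col17a1 were among those with no named probe. Krt14, the basal type I keratin, had 6.95, 6.80, 7.16, 7.05 and 7.23 against 7.20, 7.36, 7.42, 7.16 and 7.26, and the groups overlapped. Itgb4, an integrin of the hemidesmosome, had 4.10 ± 0.13 against 4.46 ± 0.12 (SD, n = 5 each) with no overlap and a difference of -0.36. Krt1, a keratin of the suprabasal epidermis, differed by -0.56. The sebaceous list, whose gland opens into the follicle, had a median of -0.10 over 13 genes (0.040 on slide 2) and the melanocyte list -0.22 over 7, and 0 genes of either met the rule.

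**Figure D4:**
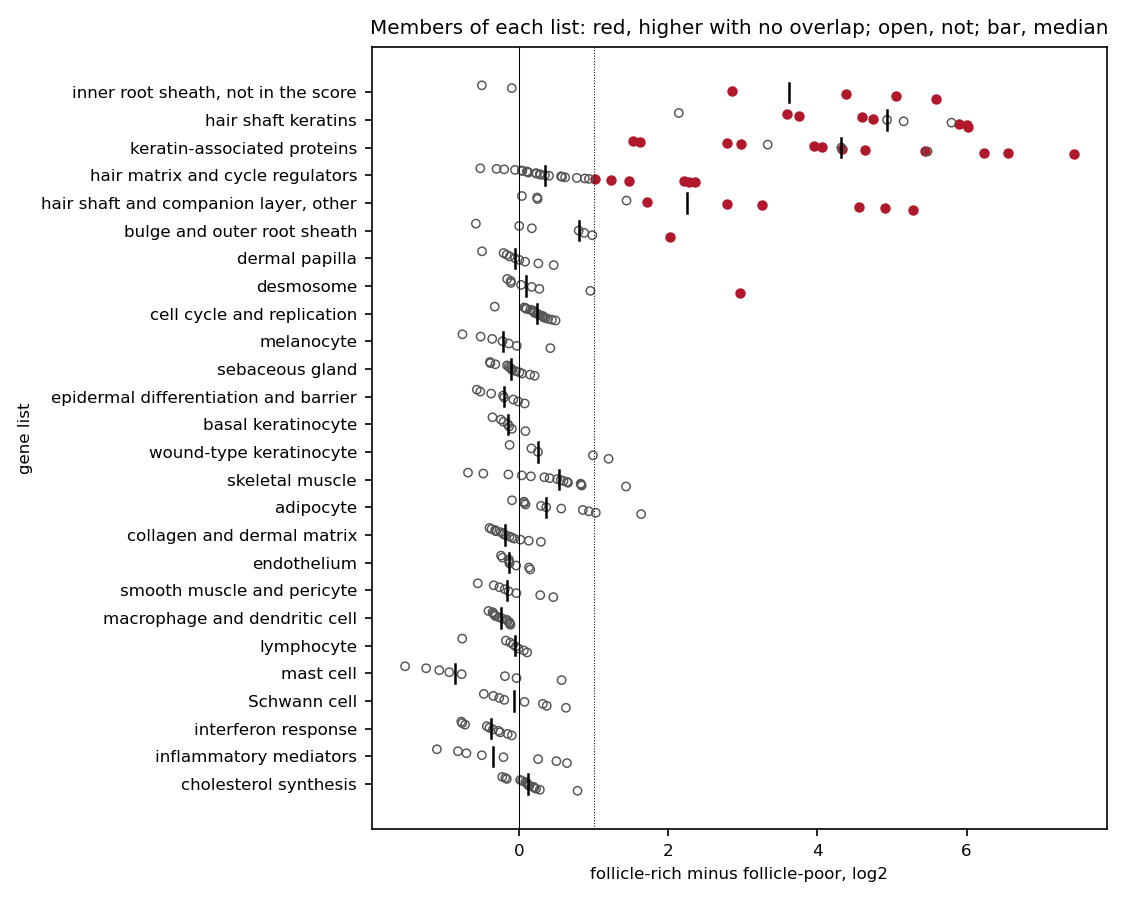
Difference between follicle-rich and follicle-poor arrays (x axis, log2) for each measured gene of the 26 lists (rows); red points met the rule for higher genes, open points did not, black bars are list medians and the dotted line is 2-fold. The medians of the first 3 lists are 3.62, 4.93 and 4.32, and every list below desmosome has no red point.

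Markers of other cells of the skin were measured in the same arrays. Their part in the results above was not tested. Skeletal muscle varied most. Its list score ran from -2.63 to 4.55 on follicle-rich and from -2.62 to 4.89 on follicle-poor arrays, with 13 of 16 genes positive and a median difference of 0.54, which was 2.92 on slide 2. Acta1, the actin of skeletal muscle, had 3.74, -0.11, -4.21, 0.64 and -3.59 against -4.44, -4.91, -2.16, 4.26 and 0.50, so high arrays were found in both groups. With the muscle score as a covariate, 144 of the 146 genes met the rule, on the same arrays that chose them. Whether muscle content had a part in the contrast was not tested. Adipocyte genes were positive for 10 of 11 with a median of 0.37, or 0.79 on slide 2, and the score ran from -0.48 to 1.11 and from -1.20 to 0.27. The fat cell hormone Retn differed by 1.64 with overlap.

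Mast cell genes were the markers with the lowest median, -0.85, with 7 of 8 negative and none that met the rule. Fcer1a, a chain of their IgE receptor, had -5.63, -6.02, -4.98, -4.95 and -4.31 against -3.80, -5.40, -3.22, -3.47 and -2.37, and sham replicate 6 lay within the follicle-rich range. The mast cell score ran from -1.07 to 0.72 and from -0.64 to 1.22. Macrophage genes were negative for 12 of 12 with a median of -0.25 and scores of -0.47 to 0.10 and of -0.16 to 0.74. Their median turned to 0.12 on slide 2. Interferon response genes were negative for 10 of 10 with a median of -0.37, and scores ran from -0.58 to 0.34 and from -0.27 to 0.63. Collagen genes had a median of -0.19, smooth muscle genes -0.16 and lymphocyte genes -0.059, and on slide 2 these medians turned to 0.12, 0.10 and 0.051. Endothelial genes had -0.13, and -0.33 on slide 2, and Schwann cell genes -0.061. Wound-type keratinocyte genes had a median of 0.25, inflammatory mediators -0.35, which turned to 0.093 on slide 2, and cholesterol synthesis genes 0.12. None of these lists held a gene that met the rule in either direction.

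Among the 20 genes with the largest measured differences, 7 are neither keratins nor keratin-associated proteins. Hapln1, a link protein that ties hyaluronan to proteoglycans, had -1.91, -0.41, -3.36, -2.53 and -2.21 against -7.53, -5.26, -7.02, -7.25 and -8.23, a difference of 4.98. Slc7a14, a transporter of the amino acid carrier family, differed by 4.93, and Lyg1, a goose-type lysozyme, by 4.82. These sizes are not exact, since of the 5 follicle-poor arrays 1 was well above background for Hapln1 and 2 for Slc7a14 and for Lyg1. The bitter taste receptor gene Tas2r129 was 26.8-fold and the vomeronasal receptor gene Vom2r63 22.6-fold above the floor used for Krt40. Neither was well above background on any follicle-poor array. The other two, Mt4 and Gprc5d, are given above. The probe of a receptor gene is named from its accession, and which transcript it reads in skin was not tested.

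Genes of ion and solute transport also appeared, and those named in this paragraph were chosen after their values were seen. Kcne1, a subunit of potassium channels, had -1.20, -1.74, -1.23, -1.31 and -1.77 on follicle-rich and -5.06, -4.86, -4.12, -4.68 and -7.22 on follicle-poor arrays, a difference of 3.74 with tight follicle-rich values. Otop2, a proton channel, differed by 3.90, and Abcg2, an efflux transporter, by 3.70. Dlx1, a homeodomain factor, differed by 2.90, and Nog, which binds and blocks BMP ligands, by 2.01. Nog did not meet the rule under either normexp setting, nor Dlx1 under the one with the 75th percentile.

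The 5 lower genes had small differences, and 4 of them were dim. Sarm1, an NAD-cleaving enzyme of nerve cells, was well above background on all 10 arrays and had -2.64, -3.31, -2.41, -2.77 and -2.02 against -1.52, -1.84, -1.90, -1.46 and -1.14, a difference of -1.06. Pnoc, the precursor of nociceptin, differed by -1.35, Lefty1 by -1.10, Foxi3 by -1.09 and Actrt3 by -1.03. They were well above background on 1 to 3 of the follicle-rich arrays. On slide 2, 3 of the 5 differed by at least 1 in the same direction, and after normexp none of the 5 met the rule.

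The 7 arrays between the groups took no part in that contrast and so allow a test. The slope of each probe on the score was fitted in them with limma, with no term for exposure or slide. In order of score they were exposed replicates 8, 5 and 9, sham replicates 2, 8 and 7, and exposed replicate 2. Score and exposure are therefore not cleanly apart in these slopes. At a Benjamini-Hochberg adjusted p under 0.05, 0 of 20706 probes rose with the score (0%) and 0 fell (0%), and the lowest adjusted p of any probe was 0.0892. Without adjustment, 405 probes had a positive and 854 a negative slope with p under 0.05, together 6.08%. The scores of these arrays span 0.085 to 1.25, which is narrow beside the contrast. Of the 146 genes higher in follicle-rich skin, 123 had a positive slope, where 46.9% of all named genes did, and 47 had a positive slope at an unadjusted limma p under 0.05, where 2.27% of named genes did. Their median slope was 0.59 log2 per unit of score, against -0.012 over all genes. These genes vary together and are not independent of each other.

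By name, slopes differed in size and in error, and none passed the adjusted threshold. Krt26, of the inner root sheath, had a slope of 1.38 with a standard error of 0.15 (limma, adjusted p = 0.226). Cldn14, a tight junction claudin, had 1.10 with a standard error of 0.19, and Slc9a2, a sodium-proton exchanger, 0.80 with 0.14, each with an adjusted p of 0.799 in limma. Msx2 had 0.93 (SE 0.20), Lef1 1.02 (SE 0.25) and Padi3 0.98 (SE 0.25). Krt72 had 1.07 (SE 0.44). Among shaft genes, Krt40 had 2.03 (SE 0.55), Krt82 1.75 (SE 0.52), Krtap31-1 2.08 (SE 0.68), S100a3 1.27 (SE 0.42) and Mt4 1.13 (SE 0.40), whereas Krt85 had 0.47 (SE 0.82) and Krtap15-1 0.18 (SE 1.05). Of the 5 lower genes, 2 had a negative slope and 0 passed an unadjusted p under 0.05 in limma. The probes with the smallest limma p and a slope outside the called genes were those of Armcx6 (0.82, SE 0.14) and Gstm7 (0.69, SE 0.10), and with a negative slope those of Terf2 (-0.79, SE 0.11), Lypd8l2 (-0.86, SE 0.13), Il7r (-1.12, SE 0.19), Bicd1 (-0.99, SE 0.17) and Zfp354c (-0.51, SE 0.09). None of them met the rule between the groups.

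**Figure D5:**
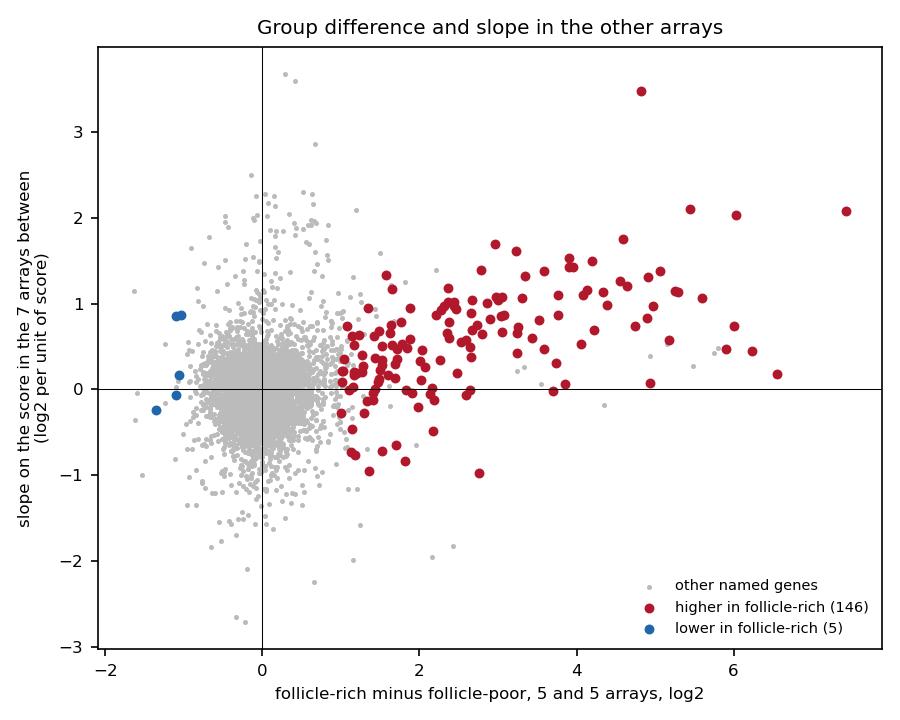
Each point is 1 named gene, with its difference between 5 follicle-rich and 5 follicle-poor arrays on the x axis (log2) and its slope on the score in the 7 other arrays on the y axis (log2 per unit of score). Of the 146 higher genes (red) 123 lie above the zero line of slope, the 5 lower genes (blue) lie on both sides of it, and the other genes (grey) surround zero.

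Other probes of the same gene mostly went the same way, and probes with no gene name were more often higher than lower. Of the 146 genes, 20 had other kept probes, and 22 of these 23 probes had the same sign and 20 met the rule. The exception was a probe of Nrxn2. Of the 20706 kept probes outside the score 243 were higher and 8 lower. Among the 7522 of these probes that carry no symbol, 70 were higher and 2 lower. Of the 146 genes, 81 were well above background on all 17 arrays, 143 on all follicle-rich arrays, 81 on all follicle-poor arrays and 12 on no follicle-poor array. For the genes that were not well above background on every follicle-poor array, the size of the difference rests in part on signal near the scanner's floor and is not exact.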

How the data were processed

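The labels give whole skin RNA, labelled with Cy3 and hybridised to 1-colour arrays. The deposited scanner files hold fluorescence intensity, read by the authors in Agilent Feature Extraction (version 10.7.3.1) and background-subtracted per the file headers, with no scaling between arrays. Their quality flags were written by the same software, per the file headers. The deposited value table holds log2 values of 14853 probes, centred per probe, and was used as an alternative; how it was scaled is not given in the sources used here.

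Outlier spots were left out, spots of a probe averaged, and log2 intensity taken minus each array's 75th percentile. Of 30367 probes, 17990 matched a symbol of RefSeq's GRCr8 table through their accession, and 20710 were well above background (in at least 50% of spots) on at least 8 arrays. A gene was read from its brightest kept probe. Arrays were ranked and grouped by the keratin score. Slopes were fitted in the 7 remaining arrays with limma 3.58.1 in R 4.3.3, adjusted by Benjamini-Hochberg over all kept probes, and the fit was tested on simulated data. The members, the 26 gene lists and the rules were chosen with earlier results of these data known. Named genes were drawn from the 20 largest differences among higher genes, all lower ones, the 3 largest in each list and 20 markers set in advance. The 5 smallest slope p in each direction were added. Not all genes of these sets are given in the text, among them some of the 20 markers and of the 3 largest in a list. Others are said to be chosen after their values were seen or belong to a list. The animal behind each array is not labelled, so p-values measure the spread between arrays. Alternatives were other scalings, normexp (offset 50, run on median pixel signal, since the files hold no mean), the value table, filters, group sizes, slide and exposure as blocks, and leaving out each array. Slides were inferred from the bracketed numbers in the titles, and every result by slide rests on that reading. The number of arrays limits the precision.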

Additional observations from a re-analysis of the deposited data

Results flagged for a closer look

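Of 56 groups of list scores and keratin scores examined for an array far from the rest, 5 stood out, where chance alone gives about 1 in 20. Among the 8 sham arrays, sham replicate 5 had a keratin score of -8.88, far below the others. On follicle-rich arrays, sham replicate 1 had the lowest macrophage score, -0.47, exposed replicate 3 the highest interferon score, 0.34, and exposed replicate 3 the lowest score of inflammatory mediators, -0.42. On follicle-poor arrays, sham replicate 6 had the highest score of inflammatory mediators, 1.34, where Cxcl2, a neutrophil-attracting chemokine, was 2.16 against -5.59 to -3.75 on the other follicle-poor arrays.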

How the results depend on the processing

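The counts of 146 higher and 5 lower genes moved with the processing, while no named gene that met the rule changed sign under any alternative. Normexp with the 75th percentile gave 93 higher and 0 lower genes, 92 of the 93 among the 146, and normexp with quantile scaling 102 and 0. The deposited value table, with fewer probes, gave 75 and 2, and probes well above background on all arrays 81 and 1. With 6 against 6 arrays there were 81 and 0, with 4 against 4 208 and 17, and at 1.5-fold 224 and 38. Slide as a block gave 206 and 33, exposed arrays alone 183 and 27, and sham arrays alone 224 and 36. Chosen after seeing the data, leaving out the 2 lowest arrays gave 154 and 8, and slide 2 alone 219 and 45. Leaving out each array in turn gave 143 to 185 higher and 3 to 14 lower genes. Fewer arrays make no overlap easier to reach. The slope fit gave 0 and 0 in every alternative among the arrays between, and 464 and 271 probes over all 17 arrays, which include those that set the groups. The exposed minus sham score ranged from -0.24, without sham replicate 5, to 1.45 when each array was left out. Membership of the groups was 10 of 10 arrays under each scaling and 9 without Krt28. No paired analysis was possible because the labels carry no replicate numbers; those used here were assigned in sample order and only name the arrays. Signal over background limits the size of differences of dim genes on follicle-poor arrays.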
